A study of Bos taurus with 11 samples.

Results

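Genes of fatty acid uptake, intracellular binding, storage and switching to fat as a fuel were examined in the endometrium, the mucosal lining of the womb, of dairy cows in early lactation. The set was given as 10 gene symbols: CD36, VLDLR, LPL, ANGPTL4, FABP3, FABP4, FABP5, PLIN2, PPARG and PDK4. All 10 were among the 9155 genes named on the array, through 17 probe sets, and the probe set with the highest mean over all arrays, called the main probe set, stood for each gene. The members were chosen by function and with earlier results of these data known, so counts over the set are descriptions.

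Tissue came from 11 multiparous Holstein-Friesian cows slaughtered 14 ± 0.4 days after calving (error as the labels give it), with 1 Affymetrix array per cow. All were in lactation, their mean parity was 4.7, and regimes assigned at random began on day 2. For the 5 mild cows silage was unlimited, concentrate was 8 kg daily and milking took place 1 time daily. For the 6 severe cows the daily ration was 25 kg of silage with 4 kg of concentrate, and milking took place 3 times daily. Crude protein was given as 21% for both groups, and previous yield as 6477 ± 354 kg (error as the labels give it). Both regimes were designed to give a negative energy balance, so a deeper deficit is compared with a shallower one, and feed and milking frequency differed together.

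When a cow spends more energy than she eats, adipose tissue releases fatty acids into the blood, and other tissues take them up. CD36 and the lipoprotein receptors and lipases bring fatty acids to the cell, fatty acid binding proteins (FABPs) carry them through the cytosol, perilipins coat the droplets in which they are stored as triglyceride, and the nuclear receptors called PPARs sense them and switch on many of these same genes. ANGPTL4, PLIN2 and PDK4 are textbook PPAR targets, and in the ruminant endometrium fatty acids are also the source of prostaglandins.

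The deposited values are RMA log2 values, so a difference of 1 is a doubling of signal. A signal below 5.52, a level under which 40% of probe sets lie, is called dim, and differences are compressed there. Array medians were all 6.20, and the 3' minus 5' difference of 6 control transcripts, which tracks RNA quality, ran from 0.42 to 0.82 over the 11 arrays (exact permutation p = 0.643 for the group difference). It was highest in severe 2, at 0.82 against 0.68 for severe 6, the next cow. The markers of endometrium were present: the mean level of 12 epithelial markers ran from 7.65 to 8.50 in mild and from 7.02 to 8.41 in severe cows, and that of 10 stromal markers from 10.93 to 11.57 and from 11.17 to 11.50. Smooth muscle markers were high as well, with mean levels from 11.14 to 12.49 over all cows, and the 7 measured red blood cell and platelet markers were all dim. Several cows stood at the ends of the marker levels. Mild 2 had the highest epithelial level (8.50) and the lowest stromal (10.93), endothelial (7.34), macrophage (7.87) and neutrophil (5.04) levels of all cows. Severe 5 had the lowest epithelial level, 7.02 against 7.65 for the next cow. Severe 4 had the highest macrophage (10.41), neutrophil (8.81) and adipocyte (4.58) levels. Mild 4 had the highest smooth muscle level (12.49) and severe 6 the lowest (11.14). Differences of some genes are also given without 1 or 2 of these cows. A difference given without such a value need not be stable, and the part of tissue makeup in the differences was not tested.

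Across the set, 8 of 10 genes averaged higher in severe cows and 2 lower, with a median log2 difference of 0.80, against -0.00378 over all genes. None of the 10 passed limma's test adjusted over all 24016 probe sets, where 0% were called and the smallest adjusted p was 0.177, and adjusted p of the 10 ran from 0.289 to 0.849. At an unadjusted p under 0.05 there were 6 of 10, all higher in severe cows: CD36, ANGPTL4, VLDLR, PDK4, PLIN2 and FABP5. Without mild 4, and likewise without mild 2 and severe 5 together, there were 3, CD36, ANGPTL4 and VLDLR. Among all probe sets 12.8% reached that level (6.97% of all higher in severe cows and 5.88% lower), and among main probe sets the share was 15.9%, with 8.45% higher and 7.46% lower. The groups overlapped in the main probe set of every member, as they did in all but 1.19% of genes. In bulk tissue such as this, more cells of a type and more RNA per cell cannot be told apart.

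**Figure D1:**
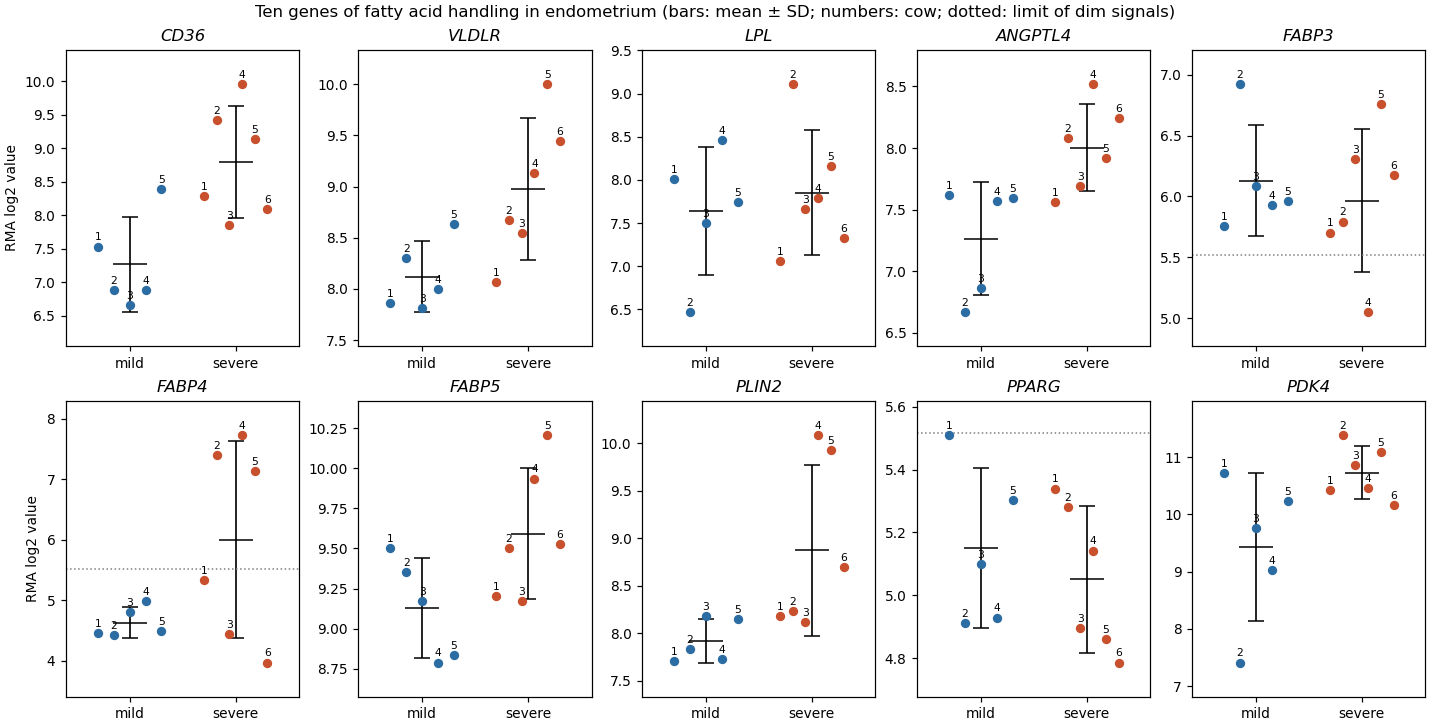
RMA log2 value of the main probe set of each of the 10 genes (vertical axes, each with its own range), by group. Points are cows, numbered within their group, bars show mean ± SD and the dotted line is the limit of dim signals at 5.52. FABP4 shows severe 2, 4 and 5 between 7.13 and 7.73 and all other cows at 5.34 or lower, while PPARG is dim in all 11 cows.

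The uptake genes come first. CD36, the scavenger receptor that takes long-chain fatty acids and oxidized lipoproteins into macrophages, endothelium, muscle and fat cells, had the smallest unadjusted p of the set. Its values in mild cows 1 to 5 were 7.53, 6.88, 6.65, 6.88 and 8.39, and in severe cows the lowest was 7.86, the median 8.71 and the highest 9.96. Severe 2, 4 and 5, at 9.42, 9.96 and 9.14, lay above every mild cow, and mild 5 lay above 3 severe cows. CD36 averaged 7.27 ± 0.71 (SD, n = 5) in mild and 8.79 ± 0.83 (SD, n = 6) in severe animals. This is a log2 difference of 1.52 ± 0.42 (SE), or 2.88-fold. The limma p was 0.00356 unadjusted, with an adjusted p of 0.289, and the exact two-sided permutation p over all splits of the cows was 0.0195. The difference of CD36 was larger than that of 99.4% of the 9155 genes. Leaving out 1 cow gave differences from 1.29 (without severe 4) to 1.80 (without mild 5), and without mild 2 and severe 5 it was 1.36.

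VLDLR, a receptor of the LDL receptor family that holds triglyceride-rich lipoproteins at the cell surface, read 7.86, 8.30, 7.81, 8.00 and 8.63 in mild cows 1 to 5. In severe cows its lowest value was 8.06, the median 8.91 and the highest 10.002. Severe 5, 6 and 4 were the 3 highest cows, and severe 1 and severe 3 lay below the highest mild cow. The log2 difference was 0.86 ± 0.30 (SE), or 1.81-fold, with an unadjusted limma p of 0.0162 (adjusted p = 0.319) and an exact permutation p of 0.0325. With 1 cow left out it ranged from 0.65 (without severe 5) to 1.04 (without severe 1), and without mild 2 and severe 5 it was 0.70. The 3 other VLDLR probe sets were dim on average and had smaller log2 differences of 0.20, 0.13 and -0.09, with exact permutation p of 0.288, 0.0476 and 0.299 and limma adjusted p between 0.454 and 0.681. In the second of these all 6 severe cows lay above the mild mean.

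LPL, lipoprotein lipase, which frees fatty acids from circulating triglyceride at the vessel wall, had the highest adjusted p of the set. Mild cows 1 to 5 read 8.01, 6.47, 7.50, 8.46 and 7.74, and severe cows ran from 7.06 through a median of 7.73 to 9.11. The groups overlapped, with mild 2 the lowest and severe 2 the highest of all cows. The log2 difference was 0.22 with a 95% interval from -0.64 to 1.07 (adjusted p = 0.849). Without severe 2 it was -0.04, and without mild 2 it was -0.08.

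ANGPTL4, a secreted inhibitor of LPL that fasting and fatty acids induce through PPARs, read 7.62, 6.67, 6.86, 7.57 and 7.60 in mild cows 1 to 5. Severe cows ran from 7.56 through a median of 8.00 to 8.52. All severe cows except severe 1 lay above the highest mild cow, and mild 2 and mild 3 were lower than the rest. ANGPTL4 averaged 7.26 ± 0.46 (SD, n = 5) in mild and 8.00 ± 0.35 (SD, n = 6) in severe animals. Severe cows were thus 0.74 ± 0.22 (SE) log2 units higher, or 1.67-fold. Its unadjusted limma p was 0.00604 (adjusted p = 0.301) and its exact permutation p 0.0152. The difference ranged from 0.59 (without mild 2) to 0.83 (without mild 1) when 1 cow was left out, and was 0.61 without mild 2 and severe 5. CD36 and ANGPTL4 were 2 of the 3 members, with VLDLR, that kept an unadjusted p under 0.05 in each fit that left out 1 cow.

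Of 11 measured partners of LPL and lipoprotein receptors, 5 were higher and 6 lower in severe cows (median difference -0.000329), 0 passed the adjusted test and 2 had an unadjusted p under 0.05. These were SEL1L, a component of endoplasmic reticulum quality control needed for LPL to mature, at 0.29 ± 0.10 (SE), and ANGPTL2, a secreted relative of ANGPTL4, at 0.58 ± 0.24, which without mild 2 was 0.38 and no longer at an unadjusted p under 0.05. LMF1, which folds LPL, differed by -0.04, and APOE, the ligand of VLDLR, by 0.39 ± 0.20 (SE). The fatty acid transport and activation list held 17 measured genes, 7 higher and 10 lower, with a median of -0.03 and 2 at an unadjusted p under 0.05, both higher. ACSL5, an acyl-CoA synthetase, differed by 0.45 ± 0.20 (SE), and ACSL6, a relative that was dim in both groups, by 0.66. Of the 11 fits that left out 1 cow, ACSL5 kept an unadjusted limma p under 0.05 in 5 and ACSL6 in 9. SEL1L did in 11 and ANGPTL2 in 8. ACSL1 differed by 0.00282 and CAV1, the coat protein of caveolae, by -0.22, and SLC27A1 and SLC27A4, fatty acid transport proteins, were dim.

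Of the cytosolic carriers, FABP4, the carrier of adipocytes, macrophages and some capillary endothelium, read 4.46, 4.42, 4.81, 4.99 and 4.496 in mild cows 1 to 5, all dim. In severe cows 1 to 6 it read 5.34, 7.40, 4.45, 7.73, 7.13 and 3.97. Severe 2, 4 and 5 thus stood more than 2 log2 units above every mild cow, and severe 3 and 6 lay within or below the mild range. The SD of FABP4 was 1.62 in severe and 0.25 in mild cows, and the former exceeded the severe SD of 99.7% of genes. The log2 difference of the means was 1.37 ± 0.65 (SE) with a 95% interval from -0.06 to 2.79, an adjusted p of 0.409 and an exact permutation p of 0.128. It ranged from 1.02 (without severe 4) to 1.77 (without severe 6) when 1 cow was left out, and was 1.09 without mild 2 and severe 5. Since all mild cows were dim, the size is not exact and no fold is given. The other FABP4 probe set was dim in all cows, with a log2 difference of 0.28 ± 0.16 (SE) and an exact permutation p of 0.171. Severe 2 and severe 4 were highest in it, at 4.19 and 3.97. Severe 5, at 3.548, lay within its mild range, so this probe set did not show the pattern of that cow.

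FABP5, the carrier first described in epidermis and also abundant in macrophages, was dim in no cow. It read 9.50, 9.35, 9.17, 8.79 and 8.84 in mild cows 1 to 5 and ran from 9.17 through a median of 9.51 to 10.21 in severe cows. Severe 5 and severe 4 were highest, and the other severe cows lay within or just above the mild range. The log2 difference was 0.46 ± 0.20 (SE), or 1.38-fold, with an unadjusted limma p of 0.0425 (adjusted p = 0.374) and an exact permutation p of 0.0801. In the fits that left out 1 cow it ranged from 0.34 to 0.55 and had an unadjusted p under 0.05 in 4 of 11. The other FABP5 probe set differed by 0.35 ± 0.28 (SE).

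FABP3, the carrier of heart and mammary gland, had a difference of the opposite sign. It read 5.75, 6.92, 6.09, 5.93 and 5.96 in mild cows and ran from 5.05 through 5.99 to 6.76 in severe cows, the dim lowest value being severe 4. The log2 difference was -0.16 with a 95% interval from -0.80 to 0.47 (adjusted p = 0.843), and without mild 2 it was 0.03. FABP4 and FABP5 lie close together in the cow genome, with 2 protein-coding genes, PMP2 and FABP9, between them in the RefSeq gene table of ARS-UCD2.0. The FABP family shares sequence, and the specificity of the probes was not tested.

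**Figure D2:**
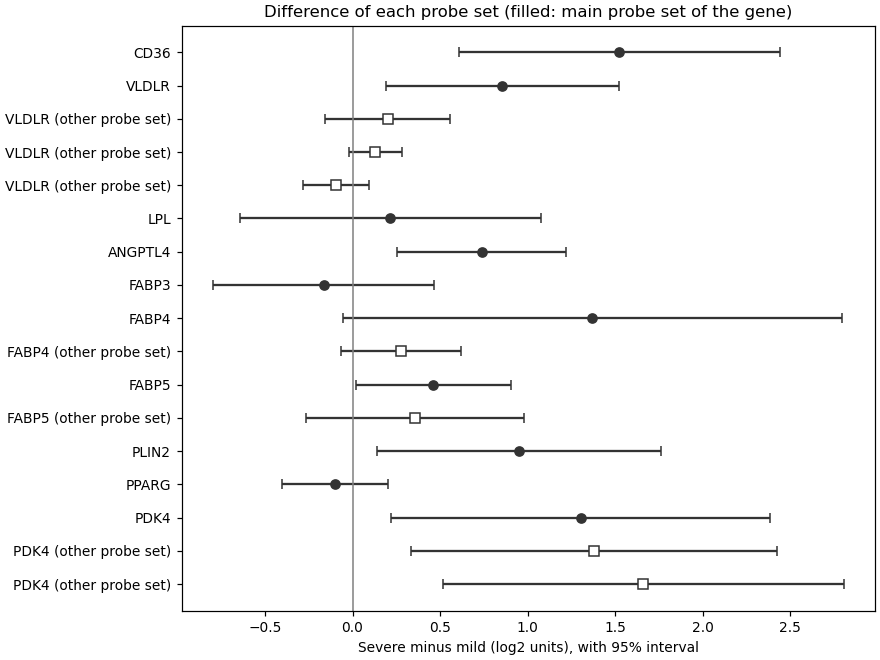
Difference between severe and mild cows in log2 units (horizontal axis) for all 17 probe sets of the 10 genes, with 95% intervals from limma. Filled circles are main probe sets, open squares other probe sets of the same gene. The 3 PDK4 probe sets lie between 1.30 and 1.66, while the 3 other VLDLR probe sets lie between -0.09 and 0.20.

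Storage was represented by PLIN2, the perilipin that coats lipid droplets in nearly all cells and accumulates as they fill. It read 7.71, 7.83, 8.18, 7.73 and 8.16 in mild cows 1 to 5. Severe cows 1 to 6 read 8.18, 8.23, 8.12, 10.09, 9.92 and 8.69. Severe 4 and 5 stood more than 1 log2 unit above all other cows, whereas severe 1, 2 and 3 lay close to the highest mild cow. PLIN2 averaged 7.92 ± 0.23 (SD, n = 5) in mild and 8.87 ± 0.90 (SD, n = 6) in severe animals. The means differ by 0.95 ± 0.37 (SE) log2 units, or 1.93-fold. The unadjusted limma p was 0.0251 (adjusted p = 0.340) and the exact permutation p 0.0303. Without mild 2 and severe 5 the difference was 0.72.

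The list of droplet storage and lipolysis held 21 other measured genes. Of these, 12 were higher and 9 lower in severe cows, with a median of 0.03, and 0 passed the adjusted test. SOAT1, which esterifies cholesterol for storage, was 1.28-fold higher with a log2 difference of 0.36 ± 0.14 (SE), and DGAT2, which makes triglyceride and was dim in both groups, differed by 0.53, these being the 2 with an unadjusted p under 0.05. The lipases PNPLA2 and LIPE differed by -0.06 and -0.13, the droplet protein PLIN3 by 0.07, and G0S2, an inhibitor of PNPLA2, by -0.48 ± 0.28 (SE).

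PPARG, the nuclear receptor that drives adipocyte differentiation and lipid storage, was dim in all 11 cows. It read 5.51, 4.91, 5.10, 4.93 and 5.30 in mild cows and ran from 4.79 through 5.02 to 5.34 in severe cows. Its log2 difference was -0.10 with a 95% interval from -0.40 to 0.20 (adjusted p = 0.795). At this signal a change of PPARG transcript may not be detectable. Among 11 measured PPAR relatives, retinoid receptors and cofactors, 7 were higher and 4 lower (median 0.06), with 0 past the adjusted test and 2 at an unadjusted p under 0.05. These were CREBBP, a histone acetyltransferase, at 0.26 ± 0.08 (SE), and NCOA1, a coactivator, at 0.27 ± 0.09. PPARD averaged 6.82 in severe and 6.61 in mild cows, a difference of 0.21 ± 0.12 (SE), RXRA, the common partner of PPARs, differed by 0.29 ± 0.13, and PPARA was dim in both groups.

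PDK4, the kinase that shuts pyruvate dehydrogenase when fat is the fuel and so spares glucose, read 10.72, 7.41, 9.76, 9.03 and 10.23 in mild cows 1 to 5. In severe cows it ran from 10.17 through a median of 10.66 to 11.39. The severe cows lay close together and the mild cows far apart, and mild 1 and mild 5 lay among the severe cows. PDK4 averaged 9.43 ± 1.29 (SD, n = 5) in mild and 10.73 ± 0.46 (SD, n = 6) in severe animals, and its mild SD exceeded that of 99.7% of genes. The log2 difference was 1.30 ± 0.49 (SE), or 2.47-fold, with an unadjusted limma p of 0.0223 (adjusted p = 0.335) and an exact permutation p of 0.0238. Without mild 2 it was 0.80, and without mild 2 and severe 5 it was 0.73.

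In the 2 other PDK4 probe sets mild 2 was again lowest and mild 4 next lowest, with log2 differences of 1.38 ± 0.48 and 1.66 ± 0.52 (SE). In the dimmer of them the groups did not overlap: mild cows 1 to 5 read 9.16, 5.74, 8.39, 7.43 and 9.17, and severe cows ran from 9.43 to 10.11. Such a separation was seen in 1.07% of all probe sets. The exact permutation p of this probe set was 0.00216, the smallest that the splits of 11 cows can give. That p rests on the same separation and is no further support for it. The limma adjusted p was 0.307.

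**Figure D3:**
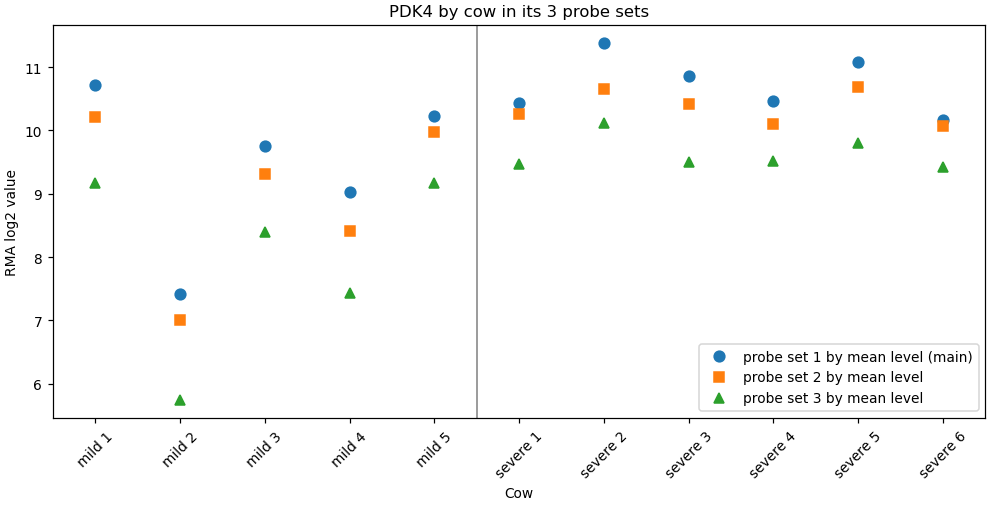
RMA log2 values (vertical axis) of the 3 PDK4 probe sets in each of the 11 cows (horizontal axis, mild cows left of the line). In all 3 probe sets mild 2 is lowest, at 7.41, 7.01 and 5.74, and mild 4 next lowest.

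Genes around the enzyme that PDK4 inhibits were described beside it. Of 13 measured genes of the pyruvate dehydrogenase complex, its kinases and phosphatases, and pyruvate and lactate handling, 3 were higher and 10 lower, with a median of -0.06 and 0 past the adjusted test. The other kinases PDK2 and PDK3 differed by -0.00402 and -0.02. PDP1, the phosphatase that reverses the action of the kinases, differed by 0.37 ± 0.13 (SE), DLAT, a core subunit of the complex, by -0.27 ± 0.09, MPC2, a pyruvate carrier, by -0.18 ± 0.07, and LDHB, a lactate dehydrogenase chain, by -0.25 ± 0.10, the 4 of this list with an unadjusted p under 0.05. Of the 11 fits that left out 1 cow, PDP1 and DLAT kept that level in 11, MPC2 in 6 and LDHB in 5.

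Other PPAR targets, most of them enzymes of mitochondrial and peroxisomal fatty acid oxidation, were described beside ANGPTL4, PLIN2 and PDK4. Of 20 measured, 13 were higher and 7 lower, the median was 0.03 and 0 passed the adjusted test. PEX11A, a peroxisome division factor, was the 1 with an unadjusted p under 0.05, at -0.24 ± 0.10 (SE). It kept that level in 6 of the 11 fits that left out 1 cow. The carnitine carrier SLC25A20 differed by 0.19 ± 0.09, and the oxidation enzymes ACADVL and ACADM by 0.16 and 0.12. Over all lists 93 other genes of the pathway were measured, 47 higher and 46 lower with a median difference of 0.00282. An unadjusted p under 0.05 was reached by 13 of them (14.0%), 9 higher and 4 lower, a share near the 15.9% of all genes. Without mild 2 there were 8, and likewise without mild 4. All probe sets at that level fell too, from 3085 to 2472 and 2213.

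Correlations show how the members varied beyond the group difference. After the group means were subtracted, 34 of 45 pairs had a positive Pearson r over the 11 cows, 6 (4 positive and 2 negative) had an unadjusted permutation p under 0.05 and 0 passed after adjustment over the 45 pairs (smallest adjusted p = 0.357 for Pearson and 0.310 for Spearman). CD36 and FABP4 had r = 0.71 (permutation p = 0.0447, adjusted p = 0.357) and rho = 0.79 (permutation p = 0.0416, adjusted p = 0.310), and r was 0.66 without the 2 cows farthest from the median of CD36. FABP4 was dim in all 5 mild and in 3 of 6 severe cows. FABP5 and PLIN2 had r = 0.71 (permutation p = 0.0412, adjusted p = 0.357) and rho = 0.68 (permutation p = 0.0442, adjusted p = 0.310), and r was 0.04 without the 2 cows farthest in FABP5, so that relation rests on those cows. LPL and PDK4 had r = 0.66 (permutation p = 0.0341, adjusted p = 0.357) and rho = 0.64 (permutation p = 0.0489, adjusted p = 0.310), with r = 0.05 without the 2 cows farthest in LPL. CD36 and ANGPTL4 had r = 0.63 (permutation p = 0.0486, adjusted p = 0.357) and rho = 0.61 (permutation p = 0.0469, adjusted p = 0.310), and r was 0.43 without the 2 cows farthest in CD36. The negative pairs both held FABP3. FABP3 and PPARG had r = -0.65 (permutation p = 0.0402, adjusted p = 0.357) and rho = -0.66 (permutation p = 0.0389, adjusted p = 0.310), with r = -0.71 without the 2 cows farthest in FABP3. PPARG was dim in all 11 cows, which limits what this pair can show. ANGPTL4 and FABP3 had r = -0.62 (permutation p = 0.0483, adjusted p = 0.357) and rho = -0.59 (permutation p = 0.0669, adjusted p = 0.310), with r = -0.06 without the 2 cows farthest in ANGPTL4. Without mild 4 LPL and PDK4 alone passed the adjustment, at r = 0.81 (permutation adjusted p = 0.0274).

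Within the 6 severe cows alone, CD36 and FABP4 had r = 0.96 (exact permutation p = 0.0111, adjusted p = 0.229 over 45 pairs), FABP5 and PLIN2 r = 0.93 (exact permutation p = 0.0153, adjusted p = 0.229) and LPL and PDK4 r = 0.88 (exact permutation p = 0.0153, adjusted p = 0.229). FABP5 and VLDLR had r = 0.86 (exact permutation p = 0.0264, adjusted p = 0.297), and no other pair had an unadjusted p under 0.05. The cows at the top differed between genes. Severe 4, 2 and 5 led CD36 and FABP4, severe 4 and 5 led PLIN2 and FABP5, severe 5 and 6 led VLDLR, and severe 2 led LPL and PDK4.

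**Figure D4:**
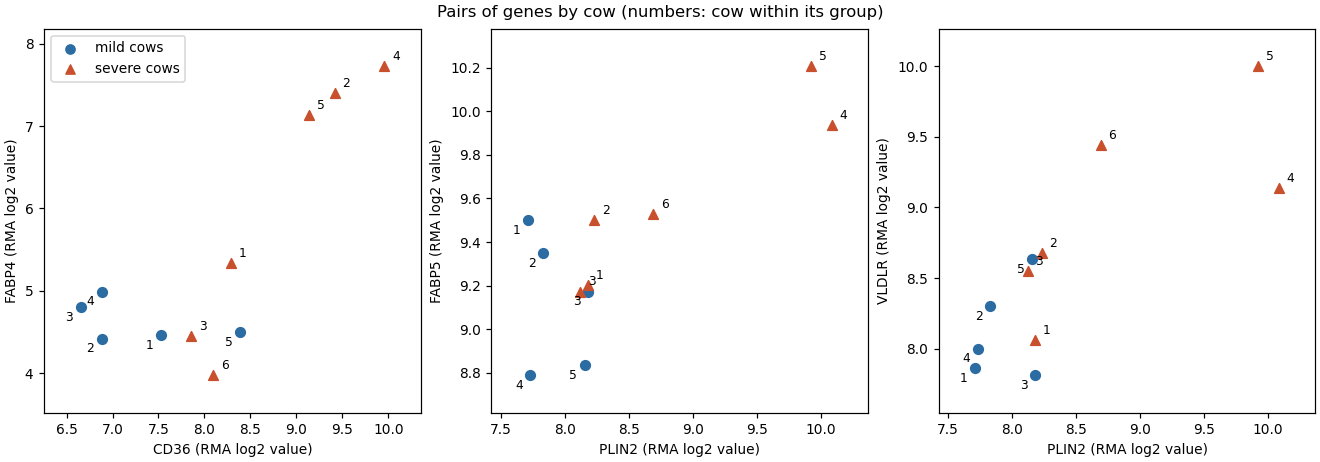
RMA log2 values of 3 pairs of genes in the 11 cows, blue circles for mild and red triangles for severe cows, numbered within their group. In the left panel severe 2, 4 and 5 stand apart at CD36 values from 9.14 to 9.96 and FABP4 values from 7.13 to 7.73, and in the middle panel severe 4 and 5 stand apart.

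Genes whose pattern was most like that of a member were sought among the 7134 other genes with signals that were not dim, as a description over 11 cows with group means subtracted. They have the largest of many r values over few cows, and how high such values run without any relation was not tested. The nearest to CD36 were ASPA, aspartoacylase (r = 0.97, rho = 0.90), SLCO2B1, an organic anion transporter (r = 0.93, rho = 0.83), and FCGR1A, an Fc receptor of myeloid cells (r = 0.93, rho = 0.92). Those nearest to ANGPTL4 were ZFP36L1, an RNA-binding protein (r = 0.90, rho = 0.85), PNPLA6 (r = 0.90, rho = 0.90) and MCOLN1, a lysosomal channel (r = 0.90, rho = 0.89). ATP13A3, HK1, a hexokinase, and SMCO4 were nearest to VLDLR (r = 0.90, 0.90 and 0.90), and SMIM10L3, EIF1B and PPP2CB to PDK4 (r = 0.92, 0.90 and 0.88).

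Leukocyte markers were higher in severe cows too. All 8 measured macrophage markers averaged higher in severe cows, by a median of 0.90, with 4 at an unadjusted p under 0.05 and 0 past the adjusted test. Their mean level ran from 7.87 to 9.29 in mild and from 8.26 to 10.41 in severe cows, and severe 4, 5 and 2 were highest, at 10.41, 10.15 and 9.89, the cows with the highest CD36 and FABP4. C1QA and C1QB, which encode chains of the complement protein C1q, differed by 1.20 ± 0.43 and 1.20 ± 0.44 (SE), and no measured macrophage marker was dim. All 9 measured neutrophil markers were higher, by a median of 2.40, with 7 at an unadjusted p under 0.05, and their mean level ran from 5.04 to 6.25 in mild and from 6.45 to 8.81 in severe cows without overlap, highest in severe 4 and 5. CXCR1, a chemokine receptor, and S100A8, a calcium-binding protein of neutrophils, differed by 2.67 and 3.24, and 3 of the 9 neutrophil markers were dim on average.

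With the macrophage score, each cow's mean deviation over these markers, as a covariate, the log2 difference of CD36 was 0.77, that of ANGPTL4 0.40, of PLIN2 0.36, of VLDLR 0.46, of PDK4 0.83, of FABP5 0.23 and of FABP4 0.41. CD36 alone of the 10 kept an unadjusted p under 0.05 (limma adjusted p = 0.998). With the neutrophil score none did, and CD36 was at 0.85 and PDK4 at 0.92. Neutrophil scores separated mild from severe cows completely, so that fit can hardly tell score and group apart. Macrophage markers averaged higher in severe cows too, so with so few cows that fit cannot cleanly separate score and group either. The part of leukocytes in the differences of the members was not tested.

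Fat cells and vessels also express several of these genes. Of 6 measured adipocyte markers 5 were dim, among them ADIPOQ at 3.79, LEP at 4.16 and CIDEC at 3.69 over all cows, and the mean level of the list ran from 4.30 to 4.47 in mild and from 4.25 to 4.58 in severe cows. RETN, resistin, dim on average, had a log2 difference of 0.59 ± 0.30 (SE), which was 0.38 without severe 4, and LIPE, the member that was not dim, one of -0.13. Of 10 endothelial markers 5 were higher and 5 lower (median 0.02), and their mean level ran from 7.34 to 7.74 and from 7.41 to 7.79. CDH5, a cadherin of vessels, differed by 0.24 (0.15 without mild 4). KDR, a receptor of vascular growth factor, was dim, differed by -0.24 and was the 1 marker of this list with an unadjusted p under 0.05 (limma adjusted p = 0.325). Of 12 epithelial markers 5 were higher and 7 lower (median -0.02), and of 10 stromal markers 5 and 5 (median 0.02). CLDN10, a claudin of epithelia, differed by -0.997 ± 0.42 (SE), or -0.55 without mild 2 and severe 5, PDGFRA of stroma by 0.97 ± 0.27 and HOXA10, a uterine identity factor, by -0.71 ± 0.20. The median was -0.28 for 7 smooth muscle markers, with TAGLN at -0.44 (-0.24 without severe 2), and -0.03 for the red blood cell and platelet markers.

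**Figure D5:**
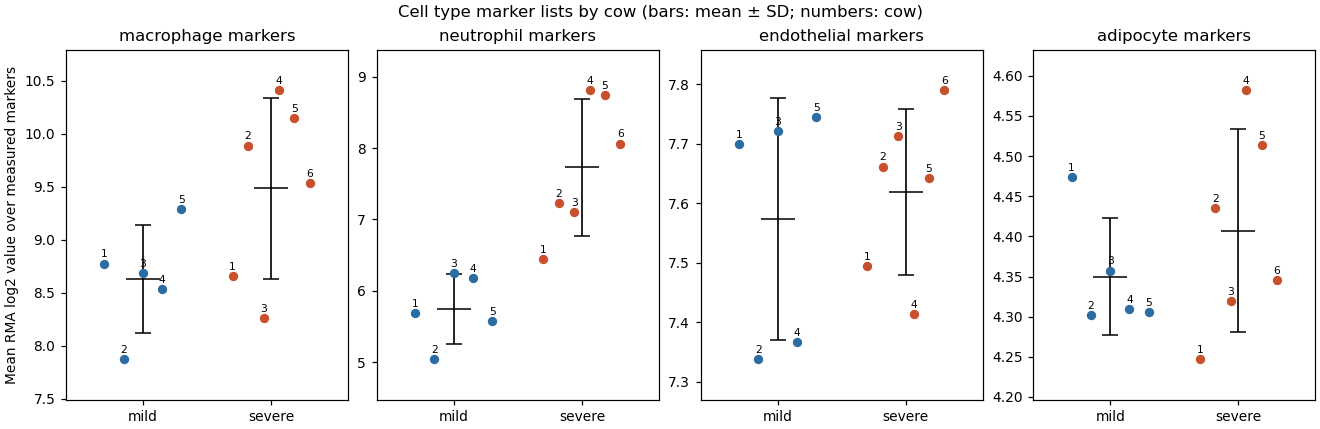
Mean RMA log2 value over the measured markers of 4 cell types (vertical axes, each with its own range) in each cow, by group, with mean ± SD. Neutrophil levels do not overlap between the groups, macrophage levels are highest in severe 4, 5 and 2, and the endothelial levels of the groups overlap, as do the adipocyte levels, which stay between 4.25 and 4.58.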

How the data were processed

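Endometrial RNA of 11 cows was measured on 1 array each. The deposited log2 values were made with RMA, per the submitters' processing notes; that they are log2 follows from their range, and the RMA version is not given in the sources used here. RMA equalizes array distributions, which hides any shift shared by all transcripts. Of 24128 probe sets 112 controls were left out. Genes were named from probe sets with 1 symbol (13292 of 24016) in the platform annotation.

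The groups were compared two-sided with lmFit and eBayes (limma 3.58.1, R 4.3.3), adjusted by Benjamini-Hochberg over 24016 probe sets at a threshold of 0.05, with an exact permutation over all splits of the cows beside it. Correlations used 100000 resamples within groups. Members, lists, alternatives and named genes were chosen with earlier results of these data known. Named genes are the members, in each pathway list up to 4 genes at an unadjusted p under 0.05 or the 2 with the smallest p, in each marker list 2, and the 3 genes most like each of the 4 members that were not dim and had the smallest p; other list genes were named after their values were seen. Blocks of cows are not given per animal here and entered no test, and replicate numbers only name cows. On simulated data with the real spread of 24016 probe sets, true shifts of 0.5, 1, 2 and 3 log2 units in probe sets drawn at random were called by limma in 48%, 92%, 98% and 98% of cases, and 13 of 181 calls over all sizes were false. These rates do not carry over to the members, since the severe SD of all members except PPARG exceeded that of 82.8% of genes or more. Precision is limited by the number of arrays. Plots were made in matplotlib 3.10.9 (Python 3.11.15).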

Additional observations from a re-analysis of the deposited data

Results flagged for a closer look

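In 5 of 78 sets of values (39 named genes in 2 groups) 1 cow stood apart from its group, its gap to the nearest cow over the group's range exceeding Dixon's limit for its number of cows; chance gives about 1 in 20. Among the members this was FABP3 in mild 2, at 6.92 against 6.09 for the next cow (ratio 0.715). The others were ANGPTL2 in severe 4 (10.28 against 9.76, ratio 0.633), LDHB in mild 5 (11.60 against 11.97, ratio 0.738), LIPE in severe 2 (6.30 against 6.03, ratio 0.689) and HBB in mild 1 (4.57 against 4.14, both dim, ratio 0.837).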

How the results depend on the processing

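With limma, 0 probe sets passed at an adjusted p under 0.10, and 0 members passed at 0.05 under the alternatives run; the differences of the members kept their direction in 188 of 202 refits. In the fits that left out 1 cow, probe sets past the adjusted threshold ranged from 0 to 16 (16 without severe 1, 2 without severe 3), members at an unadjusted p under 0.05 from 3 (without mild 4: CD36, ANGPTL4 and VLDLR) to 7, other pathway genes from 8 to 18 and member pairs past the adjustment from 0 to 1. Over the same fits all probe sets at an unadjusted p under 0.05 ranged from 2213 (without mild 4) to 3794 (without mild 5). Without mild 2 and severe 5, 3 members had an unadjusted p under 0.05. With array weights 20 other pathway genes did, but so did 3850 of all probe sets, against 3085 in the main fit. With values not centred on the group means 4 pairs of members passed, each at a Pearson permutation adjusted p of 0.0489. Such values also carry the group difference, and the Spearman permutation adjusted p of these pairs ran from 0.0883 to 0.165.

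With the neutrophil score as a covariate 1284 probe sets, 0 members and 5 other pathway genes had an unadjusted p under 0.05, and 5 members were higher. Differences then turned to -0.36 for LPL, 0.0196 for FABP3, -0.0103 for FABP4, -0.0825 for FABP5, -0.50 for PLIN2, -0.0513 for VLDLR, 0.10 for PPARG, -0.23 for ACSL6, -0.10 for ACSL5, -0.0485 for SOAT1, 0.0326 for PEX11A, -0.57 for RETN, -0.26 for C1QA, -0.32 for C1QB, 0.24 for CLDN10, 0.0422 for CLDN7 and -0.0596 for PDGFRA. With the macrophage score these counts were 940, 1 and 5, and LPL turned to -0.23 and FABP3 to 0.0760. With the 3' minus 5' difference as a covariate the same counts were 2813, 6 and 18. In the fits that left out 1 cow LPL ranged from -0.0755 (without mild 2) to 0.42 (without mild 4), with -0.0360 without severe 2, and FABP3 from -0.32 (without severe 5) to 0.0334 (without mild 2), with 0.0177 without severe 4; LPL was -0.14 without mild 2 and severe 5, and the cause was not tested. As the mean over all probe sets of the gene VLDLR was at 0.27, since its 3 other probe sets have smaller differences, and FABP4 at 0.82. No paired analysis was possible because the blocks of cows are not given per animal. PPARG and FABP4 in mild cows are limited by dim signal.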
